A study of Xenopus laevis with 20 samples.

Results

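Of 20 arrays of whole Xenopus laevis embryos at stage 13, the early neurula, 10 carried no signal of the injected tracer, and those 10 are described here. They were chosen by their own values: an array entered when the control probe set AFFX-Xl-M62653-1_s_at, designed for green fluorescent protein (GFP), stood at or below log2 8. They fell into 2 sides by the label numbering. The second side held 5 arrays, the one labelled control 10 and those labelled morpholino 1 to 4. The first side also held 5 arrays, those labelled control 1 to 5. The tracer probe set read 2.80 to 2.95 on the second side and 3.04 to 3.32 on the first side, whereas the lowest of the other 10 arrays read 13.1. Nothing lay between log2 3.32 and 13.1. These tracer values chose the arrays and were not tested.

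The series asked what gain and loss of Xrx1, the eye field homeobox gene now named rax, do to the early neurula. Per the labels, the control arrays held uninjected siblings of the injected embryos. The arrays labelled morpholino held embryos given MoXrx1 (also written Morx1), an antisense oligonucleotide against Xrx1, together with GFP mRNA, in both dorsal blastomeres at the 4-cell stage, and those labelled mRNA were given Xrx1 mRNA with GFP mRNA at the same place and time. The sources disagree on the doses: the morpholino is given as 1 pM in the sample labels, as 10 pg in the treatment protocol and as 0.5 pmol in the design text, and the GFP mRNA as 400 pg or 400 ng. Xrx1 mRNA is given as 50 pg or 50 ng. Injected and uninjected embryos alike were grown overnight at 14 °C in 0.1X Ringer solution (MMR) with 4% Ficoll. RNA of 3 embryos was pooled for an array according to the sample descriptions, whereas the design text has RNA taken from embryos one by one.

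The absence of tracer goes against the labels of morpholino 1 to 4, and its presence goes against those of control 6 to 9. Arrays of the second set are therefore called here by their labels only ("labelled morpholino 1"), with no statement on what was injected. The array sets are not named in the labels. They were read from the replicate numbers: the first set holds control 1 to 5 and mRNA 1 to 5, and the second set holds control 6 to 10 and morpholino 1 to 5. Array set, label and whatever was handled together with a set cannot be told apart in a comparison of the sides. No label says that arrays came from different parents, so every p-value measures the spread between these arrays, which may be technical.

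At stage 13 gastrulation has just ended. The dorsal ectoderm is the neural plate, with the eye field at its front and the neural crest forming at its border. The remaining ectoderm becomes epidermis, in which multiciliated cells and ionocytes begin to differentiate, while mesoderm and endoderm lie inside. Because the frog is an allotetraploid, many genes exist as a pair of homeologous copies, written .L and .S. All values are log2 signals and every difference is the second side minus the first side, in log2 units. Whole embryos were measured in bulk, so fewer cells of a type and less RNA per cell cannot be told apart.

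The layers of the embryo were present on both sides. All 6 neural plate marker genes, all 5 mesoderm genes and all 3 axial genes examined stood above log2 4 in each of the 10 arrays, as did 4 of 5 endoderm, 4 of 5 neural crest, 2 of 3 epidermal and 2 of 3 oocyte and germ plasm genes. Among 3 blood genes only lmo2.S did, while gata1.L and gata1.S stayed below log2 4 in all 10. An array has no read depth, so the number of arrays limits the precision.

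By the median correlation, arrays of each side resembled each other more than those of the other side, but this did not hold for every pair. Over the 10435 gene probe sets that stood above log2 4 in at least 5 of the 20 arrays, the correlation between arrays (a description, across probe sets that are not independent) was 0.941 to 0.992 within the second side, 0.949 to 0.987 within the first side and 0.925 to 0.957 between the sides. The median was 0.969 within the second side, 0.958 within the first side and 0.946 between them. Control 1, for one, correlated at 0.957 with labelled morpholino 1 and at 0.949 with control 3. The closest pair crossed the labels: control 10 and the array labelled morpholino 1 correlated at 0.992 and differed more than 2-fold at 79 probe sets, 0.757% of those kept. Control 2 with control 5 (0.987) and control 1 with control 4 (0.987) were the closest pairs of the first side. The first principal component held 33.1% of the variance and put the second side at -20.2 to -31.6 and the first side at 20.7 to 35.9. On the second component, with 21.4%, the array labelled morpholino 2 stood alone at -37.7, and control 1 and control 4 stood at 35.0 and 29.5. Across all 20 arrays, the best match of the array labelled morpholino 3 was tracer-positive control 9 (0.984), that of morpholino 2 was control 8 (0.967), that of control 1 was mRNA 1 (0.988) and that of control 3 was mRNA 3 (0.982).

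**Figure D1:**
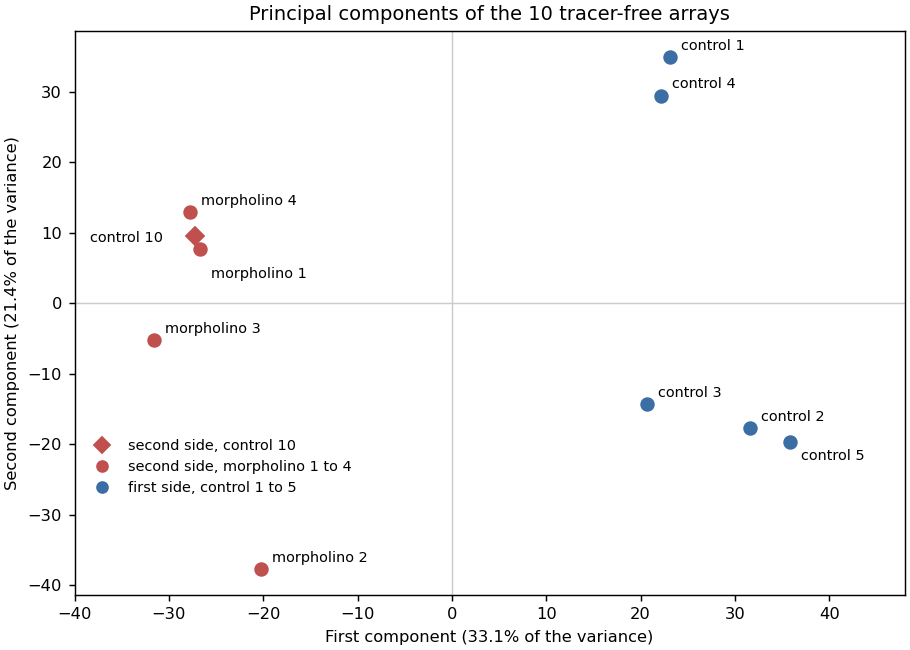
First (horizontal) and second (vertical) principal components of the 10 tracer-free arrays over 10435 probe sets, with the share of the variance on each axis, red for the second side (diamond for control 10, circles for labelled morpholino 1 to 4) and blue for the first side. The sides lie apart on the first component, -20.2 and below against 20.7 and above, while labelled morpholino 2 (-37.7) and control 1 and 4 (35.0 and 29.5) stand apart on the second.

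Measures of the arrays themselves differed little in some respects and fully in others. The 3' minus 5' signal of the control transcripts, which grows as RNA degrades, was 1.38 in control 10, 1.31, 0.916, 1.28 and 2.44 in labelled morpholino 1 to 4, and 3.00, 0.320, 1.29, 2.97 and 0.633 in control 1 to 5. Its mean was 1.47 on the second side and 1.64 on the first (2-sided exact permutation test over 5 and 5 arrays, p = 0.857). Control 1 and control 4 carried the high values of the first side, and these are the arrays that stood together on the second component. The bacterial spike-in probe sets averaged 9.32 and 9.18 (exact p = 0.5). The median of the kept probe sets was 7.38 on the second side and 7.29 on the first, and 10050 against 9931 probe sets stood above log2 4. Neither of these overlapped between the sides, and each had an exact p = 0.00794, the smallest that 5 against 5 arrays can give (0.0159 after Benjamini-Hochberg adjustment over the 4 measures). The part of RNA quality in the results below was not tested beyond a fit with that measure as a covariate, which called 2081 probe sets.

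A difference between the sides was called at an adjusted p under 0.05 in limma's moderated test across all 10435 probe sets. That test called 1602 probe sets (15.4%), of which 1049 were higher on the second side (10.1%) and 553 lower (5.3%). Of the calls, 495 exceeded 1 log2 unit, and 3216 probe sets had an unadjusted p under 0.05. The 5 arrays of one side lay wholly above or below those of the other at 1398 probe sets (13.4%, with 8.51% higher and 4.89% lower on the second side). Counted once per named gene, 761 of 5515 genes were called (13.8%), 531 higher (9.63%) and 230 lower (4.17%), with a median difference of 0.0936. The excess of higher calls changed with the scale of the arrays. As deposited 65.5% of calls were higher, against 47.4% of 1495 calls when every array was centred on its median, 46.2% of 1508 after quantile normalization and 45.6% of 362 when arrays were centred on the bacterial probe sets. The median difference over the kept probe sets moved with it: 0.0841 as deposited, -0.00747 median-centred, -0.0057 after quantile normalization and -0.0551 on the bacterial scale. Within the second and first side the bacterial means had an SD of 0.336 and 0.301, against 0.0156 and 0.0347 for the array medians. Calls lost on the bacterial scale, here and below, therefore cannot be told apart from lost precision. When the near-alike arrays were averaged (control 10 with labelled morpholino 1, control 1 with 4 and control 2 with 5), which was chosen after seeing the data, 365 probe sets were called. Without control 10 the count was 1004, and without labelled morpholino 1 it was 1028.

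The 12 named genes that rose most and the 12 that fell most were taken among genes called, with all 5 arrays of one side above all 5 of the other and a mean above log2 6 on the higher side. Since that rule asks for separation, the groups could not overlap for any of them. They are described by what their products do. All 24 were also called when arrays were centred on their medians, 17 when near-alike arrays were averaged, and 2 when control 10 alone stood for the second side.

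Several of the 12 lower genes encode adhesion, signalling or transcription proteins of the early embryo. cdh2.S encodes N-cadherin, an adhesion molecule of the neural plate. It read 5.21 in control 10 and 5.63, 5.09, 5.26 and 5.19 in labelled morpholino 1 to 4, against 6.61, 7.09, 7.03, 7.16 and 7.15 in control 1 to 5. Each side was tight, and cdh2.S fell by 1.73 ± 0.15 (SE; limma adjusted p = 6.56e-05), a 3.32-fold lower signal. foxi4.2.S, a forkhead transcription factor gene, read 4.77, 4.50, 3.87, 4.00 and 4.67 on the second side and 7.02, 6.65, 5.49, 5.81 and 6.67 on the first. It fell by 1.96 ± 0.30 (adjusted p = 0.00182). id4.S, whose protein blocks basic helix-loop-helix factors by binding their partners, read 4.55, 4.31, 3.75, 5.02 and 5.17 against 6.21, 5.85, 7.06, 6.84 and 6.03. It fell by 1.84 ± 0.31 (adjusted p = 0.00297).

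cer1.S, the gene of the secreted Nodal, BMP and Wnt inhibitor Cerberus, had one array far from its group. It read 6.41 in control 10 and 6.19, 4.84, 6.25 and 6.22 in labelled morpholino 1 to 4, against 7.09, 8.16, 6.78, 7.17 and 8.27 in control 1 to 5. Its difference was -1.51 ± 0.36 (adjusted p = 0.0188), and -1.22 without labelled morpholino 2, where it was still called. The call was lost when near-alike arrays were averaged (-1.47, adjusted p = 0.118). xenf.L fell by 2.18 ± 0.33 (adjusted p = 0.00154), with 7.05, 7.98, 7.23, 7.94 and 7.21 on the second side against 8.80, 9.38, 10.4, 9.36 and 10.4 on the first. A second probe set of xenf.L differed by -0.74 with an adjusted p = 0.683 and overlapped between the sides, since control 1 read 2.10 there and control 5 read 8.79.

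Enzymes and regulators of chromatin and RNA were also among the 12 lower genes. pts.L encodes 6-pyruvoyltetrahydropterin synthase, an enzyme of tetrahydrobiopterin synthesis. It read 3.83 in control 10 and 2.71, 2.79, 3.03 and 3.35 in labelled morpholino 1 to 4, against 6.27, 7.38, 5.72, 5.97 and 7.28 in control 1 to 5. It fell by 3.38 ± 0.35 (adjusted p = 0.00017). All its second-side values lay under log2 4, at the low end of the array, so no fold is given. Only first-set arrays carried it past the filter. kmt5a.S encodes the methyltransferase that puts a single methyl group on lysine 20 of histone H4. It read 6.68, 6.79, 8.21, 7.21 and 5.92 on the second side and 9.71, 10.5, 9.52, 9.63 and 10.6 on the first, and fell by 3.03 ± 0.38 (8.19-fold, adjusted p = 0.000545). The lowest first-side array stood more than 1 log2 unit above the highest second-side array.

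The other lower genes fell by less than pts.L and kmt5a.S. pop5.L, which encodes a protein subunit of RNase P and RNase MRP, averaged 4.85 ± 0.19 on the second side and 6.33 ± 0.09 on the first (SD, n = 5 each), a fall of 1.48 (adjusted p = 5.7e-05). nxf1.S, the gene of the main mRNA export receptor, averaged 5.41 ± 0.70 and 7.13 ± 0.59, but its second probe set differed by -0.74 with an adjusted p = 0.108. tpp1.L, which encodes a lysosomal peptidase, averaged 6.11 ± 0.06 and 7.88 ± 0.61 at its named probe set, while its other probe set differed by -0.03 (adjusted p = 0.97). The remaining lower genes were lamtor2.S (-1.47), a lysosomal scaffold gene of the mTORC1 pathway, and tmem30b.L (-1.26), which encodes a partner of lipid flippases. For tpp1.L and nxf1.S, then, the probe sets of the gene gave unlike differences.

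Among genes higher on the second side, proteases and peptidases were several. thop1.L encodes thimet oligopeptidase, which cuts short peptides. It read 7.63 in control 10 and 7.53, 4.51, 7.71 and 7.58 in labelled morpholino 1 to 4, against 4.05, 3.81, 4.12, 4.45 and 3.99 in control 1 to 5. It rose by 2.91 ± 0.54 (7.51-fold, adjusted p = 0.00501), and labelled morpholino 2 sat just above control 4, the highest array of the first side. The calpains, calcium-dependent proteases, gave 2 of the 12: capn9.L averaged 6.61 ± 0.35 and 4.65 ± 0.78 and rose by 1.96 (adjusted p = 0.00336), and capn8.3.L averaged 7.36 ± 0.53 and 5.76 ± 0.55 and rose by 1.60 (adjusted p = 0.00583).

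Signalling and RNA turnover were represented by camk2g.S and pnrc2.L. camk2g.S, a subunit gene of calcium/calmodulin-dependent kinase II, read 6.71, 6.90, 8.79, 8.33 and 7.29 on the second side and 6.64, 5.21, 4.94, 5.63 and 5.21 on the first. It rose by 2.08 ± 0.44 (adjusted p = 0.00962), although control 10 stood close to control 1, the highest array of the first side. With control 10 alone as the second side the difference was 1.19 (adjusted p = 0.46). Its 9 other probe sets differed by 0.501 to 1.78, and 3 of them were called. pnrc2.L, whose product links nuclear receptor activation and mRNA decay, read 5.81, 5.06, 5.78, 5.85 and 8.06 against 3.60, 4.33, 3.61, 3.86 and 4.22. It rose by 2.19 ± 0.46 (adjusted p = 0.00947), and by 1.70 without labelled morpholino 4, the single high array.

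Genes of metabolism were also among the 12 higher ones. azin2.S, which encodes antizyme inhibitor 2 and so acts on polyamine synthesis, read 12.3, 12.2, 11.5, 12.3 and 11.9 on the second side and 10.8, 10.9, 8.56, 10.4 and 10.2 on the first. It rose by 1.86 ± 0.39 (adjusted p = 0.00996), with control 3 lowest by over 1.5 log2 units. dbi.S, the acyl-CoA binding protein gene, averaged 7.40 ± 0.33 and 5.86 ± 0.49 (1.54, adjusted p = 0.0021), and its copy dbi.L was called in the same direction (0.95, adjusted p = 0.0419). atp6ap2.S, an accessory subunit gene of the vacuolar proton pump, averaged 6.65 ± 0.32 and 5.12 ± 0.48 (1.53, adjusted p = 0.00195).

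ccne2.L encodes cyclin E2, a partner of Cdk2 at the start of DNA replication. It read 7.50, 7.92, 7.18, 7.56 and 8.41 on the second side and 6.07, 6.91, 6.30, 4.41 and 6.995 on the first, a rise of 1.58 ± 0.44 (adjusted p = 0.0349). This call was the least stable of the 24: it was lost without control 1, control 3, control 10, or labelled morpholino 1, 3 or 4 (1.40 to 1.63, adjusted p = 0.0501 to 0.0773). Without control 4, the low array, the difference was 1.14 and was called. The remaining higher genes were rdd1.L (2.57 ± 0.43, adjusted p = 0.00293) and depdc7.S (1.56 ± 0.22, adjusted p = 0.00097). One probe set of tmem184c.L rose by 1.69 ± 0.14 (adjusted p = 5.38e-05), but another fell by 2.23 (adjusted p = 2.01e-05), so the gene has no single direction here.

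**Figure D2:**
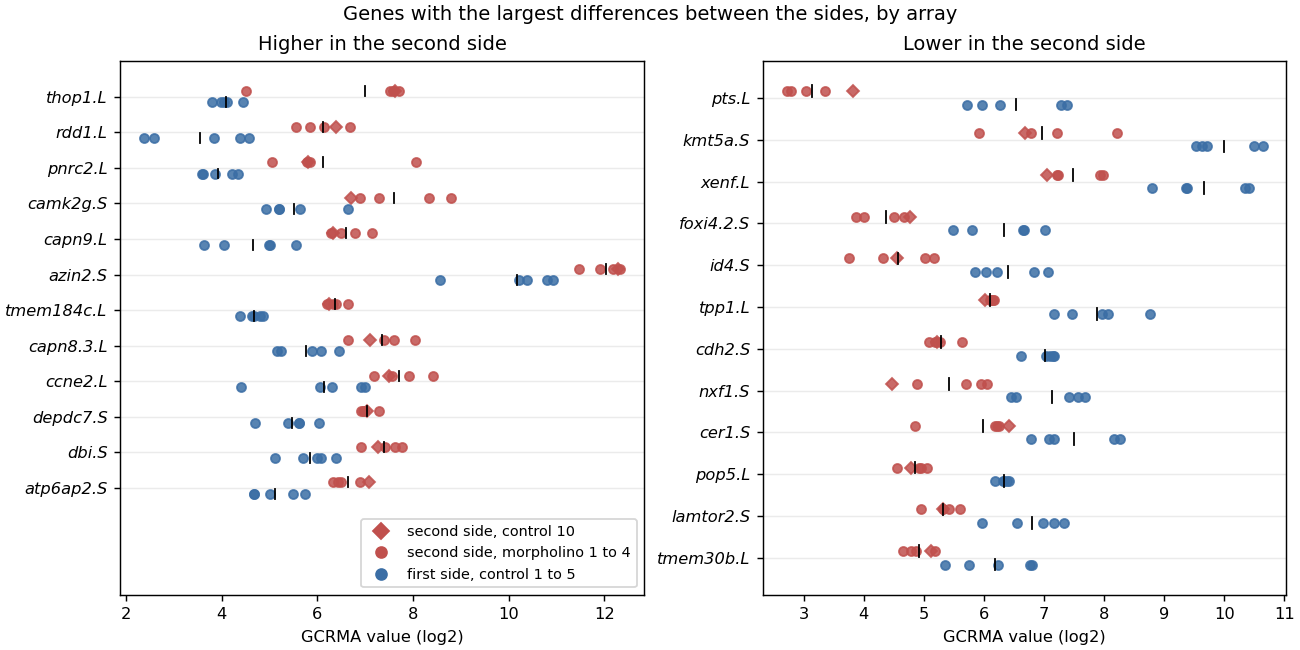
Log2 signal in each of the 10 tracer-free arrays for the genes with the largest differences, red for the second side (diamond for control 10) and blue for the first side. The sides do not overlap at any of them, as the choice of genes required, but single arrays lie far from their group, such as thop1.L in labelled morpholino 2 (4.51) and pnrc2.L in labelled morpholino 4 (8.06).

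Gene lists by tissue and function followed, each described by its count and its median beside those of all named genes (9.63% higher, 4.17% lower, median 0.0936). Of all 5515 named genes 3295 lay above 0 as deposited, and 2768 on the median-centred scale. Fewer of the 5515 were called higher on other scales: 357 median-centred, 348 after quantile normalization and 75 on the bacterial scale. With near-alike arrays averaged, 251 of the 10435 probe sets were called higher. The list counts under those settings are to be read beside these. The list of multiciliated cells and ionocytes moved most evenly. Of its 26 measured genes 11 rose and none fell, all 26 differences were above 0, and the median was 0.551. The members of this list were chosen with earlier results of these data known, so its evenness is a description. It did not hold foxi4.2.S, which fell (above). The genes that rose encode parts of the axoneme and its assembly, with a regulator and an ionocyte enzyme among them. dnai1.L, an outer dynein arm gene, read 5.75, 5.70, 5.77, 5.92 and 5.70 on the second side and 4.49, 4.55, 4.53, 4.56 and 5.24 on the first, a rise of 1.09 ± 0.16 (adjusted p = 0.00134). Only control 5 came near the second side. rsph9.L, a radial spoke gene, averaged 6.67 ± 0.20 and 5.69 ± 0.32 and rose by 0.98 (adjusted p = 0.00392). tekt2.S, a tektin of the doublet microtubules, averaged 6.69 ± 0.52 and 5.37 ± 0.61, and ca2.L, carbonic anhydrase of ionocytes, averaged 5.44 ± 0.39 and 4.17 ± 0.44. Both overlapped between the sides and were called (adjusted p = 0.0189 and 0.00606). The other genes that rose were dnali1.S (1.15), ift80.L (0.88), cfap45.S (0.64), ak7.S (0.64), cfap52.S (0.63), foxn4.S (0.57) and tubb4b.L (0.54). ccno.L, a gene that turns on centriole amplification and marks these cells, had a median of 7.44 on the second side and 7.29 on the first.

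The count of this list depended on the arrays used, while its median stayed between 0.412 and 0.618 in the fits named here. It was 5 of 26 without labelled morpholino 1 and 6 without control 2 and 7 without labelled morpholino 3, and at most 11 in any other fit that left out 1 array. It was 3 when near-alike arrays were averaged, 7 on the median-centred scale, 5 after quantile normalization and 1 on the bacterial scale. On those scales 24 or 25 of the 26 genes remained above 0, and calls among all named genes were fewer too (above). With control 10 alone as the second side the median was 0.451. The 3' minus 5' values did not separate the sides (above), and the part of RNA quality or array handling in this list was not tested.

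Lists of basic cell machinery also leaned higher. Among 62 genes of the mitochondrial respiratory chain 13 rose and none fell, with a median of 0.356. atp5mf.S, a subunit of ATP synthase, read 9.47, 9.62, 9.99, 9.63 and 9.14 on the second side and 8.10, 8.01, 8.27, 8.09 and 8.01 on the first. It rose by 1.47 ± 0.16 (adjusted p = 0.000214) and the sides did not overlap. atp5f1d.L (1.27), also of ATP synthase, atp5pb.S (0.99) and uqcrb.S of complex III (0.99) followed. The count was 9 to 15 over the fits that left out 1 array, 3 when near-alike arrays were averaged, 9 on the median-centred scale and 1 on the bacterial scale. With control 10 alone as the second side the median was 0.303.

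Among 73 ribosomal protein genes 7 rose and none fell, a share of 9.59%, near the share of all named genes called higher. Their median was 0.281, and 69 of 73 lay above 0, against 60 on the median-centred scale and 56 after quantile normalization. The called differences were small against signals near the top of the array: rps12.L averaged 12.61 ± 0.19 and 11.97 ± 0.09 (0.64, adjusted p = 0.00667), and rpl39.L averaged 12.7 ± 0.07 and 12.2 ± 0.12 (0.51, adjusted p = 0.0117). None was called when near-alike arrays were averaged or on the bacterial scale, and on the median-centred scale 3 rose and 1 fell. The count was 4 without control 4, control 5 or labelled morpholino 3. Of 43 proteasome genes only psma3.L rose (1.05, adjusted p = 0.0152).

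In the neural crest list 5 of 20 genes rose and none fell, with a median of 0.141. snai2.L encodes Slug, a repressor that marks the premigratory crest. It read 7.81, 7.28, 8.002, 7.33 and 7.61 on the second side and 6.69, 6.17, 6.42, 6.29 and 6.18 on the first, and rose by 1.26 ± 0.17 (adjusted p = 0.000905). Its copy snai2.S rose by 1.00 ± 0.15 (adjusted p = 0.00155), and its first-side values all lay under log2 4. ets1.S, a crest transcription factor gene, read 6.04, 6.04, 6.34, 5.99 and 5.63 against 4.91, 4.98, 4.85, 5.10 and 4.85. It rose by 1.07 ± 0.14 (adjusted p = 0.000731). sox9.S averaged 8.59 ± 0.34 and 7.59 ± 0.44 and rose by 1.00 (adjusted p = 0.0152). foxd3.S rose by 0.61 (adjusted p = 0.0434), a call lost without control 1, 2, 5 or 10 or labelled morpholino 1, 2 or 3 (adjusted p up to 0.0987). The list's count stayed at 4 or 5 higher in every fit that left out 1 array and on the median-centred and quantile scales, with 1 gene lower without labelled morpholino 2. It was 3 when near-alike arrays were averaged and 0 on the bacterial scale.

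The eye field and forebrain list went the other way: 3 of 16 genes fell, none rose, and the median was -0.357. six3.L encodes a homeodomain factor of the anterior neural plate. It read 6.72, 6.75, 6.44, 6.32 and 6.96 on the second side and 7.47, 7.42, 7.32, 7.24 and 7.60 on the first, and fell by 0.77 ± 0.15 (adjusted p = 0.00598). Its copy six3.S read 4.11, 4.60, 5.13, 4.31 and 4.86 against 5.40, 5.27, 5.54, 5.64 and 5.62, and fell by 0.89 ± 0.19 (adjusted p = 0.0108). fezf2.L, a forebrain zinc finger gene, fell by 1.29 ± 0.33 (adjusted p = 0.0241), a call lost without control 5, control 10 or labelled morpholino 1 (-1.11 to -1.24, adjusted p = 0.0568 to 0.0579). The gene that the study manipulated was not called: rax.S read 3.21 in control 10 and 3.20, 4.97, 4.02 and 4.60 in labelled morpholino 1 to 4, against 4.93, 5.14, 5.68, 4.72 and 5.07 in control 1 to 5 (-1.11 ± 0.34, adjusted p = 0.0505). A second probe set of rax.S differed by -1.19 (adjusted p = 0.0881), and the copy rax.L by -0.33 (adjusted p = 0.518). A morpholino of this kind acts on translation or splicing and need not lower the RNA of its gene, so the rax signals were not taken as a check of the label. When near-alike arrays were averaged no gene of this list was called.

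The neural plate list held 2 genes that fell of 18 and none that rose (median -0.261). ncam1.S, an adhesion molecule gene of neural cells, fell by 0.73 (adjusted p = 0.0251), and zic1.S, a zinc finger gene of the plate and its border, fell by 0.70 (adjusted p = 0.0429). Neither call held without control 10 or without labelled morpholino 1, nor did that of ncam1.S without control 4 or that of zic1.S without control 2, 3 or 5 or labelled morpholino 3 or 4 (adjusted p up to 0.0955). A second probe set of zic1.S differed by 0.19 (adjusted p = 0.615). No neuronal gene was called among 11. The largest there, elavl3.L, an RNA-binding protein gene of new neurons, differed by -0.88 (adjusted p = 0.112), and by -1.16 without labelled morpholino 2 (adjusted p = 0.0179).

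Posterior and mesodermal genes were mixed. Of 13 Hox and Cdx genes 2 rose (15.4%) and none fell, with a median of 0.115, and 1 rose and 1 fell on the median-centred scale. hoxc10.L, a posterior Hox gene, rose by 1.09 ± 0.13 (adjusted p = 0.000478), with second-side values of 5.64 to 5.99 and first-side values of 4.39 to 4.86. hoxa3.S rose by 0.71 (adjusted p = 0.0371), a call lost in 8 of the 10 fits that left out 1 array, the exceptions being those without control 1 or control 4. In the list of paraxial mesoderm and muscle, foxc2.S, a forkhead gene of presomitic mesoderm, read 6.66, 7.20, 6.71, 7.18 and 7.14 against 5.39, 5.74, 5.53, 5.78 and 5.90 and rose by 1.31 ± 0.16 (adjusted p = 0.000486). mef2d.L rose by 0.69 (adjusted p = 0.0352), and ckm.L, muscle creatine kinase, fell by 0.84 (adjusted p = 0.049). Of the 22 genes 2 rose (9.09%) and 1 fell (4.55%), near the shares of all named genes. Of the same genes 19 lay above 0, and the median was 0.323. The other probe sets of ckm.L differed by 0.0054 (adjusted p = 0.995) and -0.13 (adjusted p = 0.892). The call of ckm.L was lost in every fit that left out 1 array except that without labelled morpholino 2 (adjusted p up to 0.108). That of mef2d.L was lost without control 2, 5 or 10 or labelled morpholino 1, 3 or 4 (adjusted p up to 0.0805), and 5 genes of the list rose without control 3.

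In the endoderm list gata4.L fell by 1.19 ± 0.25 (adjusted p = 0.00896), with 7.15, 7.44, 7.11, 7.41 and 6.87 on the second side and 7.88, 8.23, 8.50, 8.04 and 9.29 on the first. cer1.S fell as given above, and gata6.S rose by 0.80 (adjusted p = 0.0011) between signals of 3.84 to 4.02 and 3.01 to 3.35, both near the low end of the array. gata6.S passed the filter only through second-set arrays, so the filter favoured this direction. gata4.L and gata6.S encode zinc finger factors of endoderm and heart mesoderm. The median of the 16 genes was -0.257, 13 lay below 0, and 4 fell without labelled morpholino 2. Among 29 genes of BMP signalling and ventral fate 3 fell: id4.S, smad6.L (-0.86, adjusted p = 0.0188) and bambi.L (-0.84, adjusted p = 0.0219). smad6.L and bambi.L encode feedback inhibitors of BMP signalling. The median of the list was -0.0294, and the bambi.L call was lost without control 2, control 5 or labelled morpholino 3 (adjusted p up to 0.0533). In the epidermis list 2 of 24 genes rose (8.33%, near the share of all named genes) and none fell, with a median of 0.242. krt12.4.L, an epidermal keratin gene, rose by 1.06 ± 0.23 (adjusted p = 0.0117) and krt12.2.L rose by 0.59 (adjusted p = 0.0132). The krt12.2.L signals were low, 3.885 to 4.45 on the second side and 3.39 to 3.62 on the first. Without control 3, 4 genes of the list rose.

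Maternal transcripts are supplied by the egg and cleared by the embryo. Of 21 genes 4 rose and none fell, with a median of 0.564, but 2 rose and 1 fell on the median-centred scale, 2 rose and 2 fell after quantile normalization, and 2 rose and 2 fell without control 3. ccna1.S, the embryonic cyclin A1 gene, read 5.99, 5.63, 5.08, 5.29 and 6.34 on the second side and 5.22, 3.98, 3.85, 4.24 and 4.50 on the first, and rose by 1.31 ± 0.30 (adjusted p = 0.014). Its copy ccna1.L rose by 0.96 ± 0.28 (adjusted p = 0.0405). lsm14b.S, which encodes a protein of stored messenger particles, rose by 0.66 ± 0.14 (adjusted p = 0.00913). pou5f3.3.L, a pluripotency factor gene, read 4.08, 3.27, 2.94, 2.99 and 4.55 against 2.55, 2.60, 2.49, 2.58 and 2.58 and rose by 1.01 ± 0.29 (adjusted p = 0.0369). All its first-side values lay under log2 4, at the low end of the array. Only second-set arrays carried it past the filter, so the filter favoured this direction. The pou5f3.3.L call was lost in 7 fits that left out 1 array and that of ccna1.L in 8, and the list's count was 2 without control 2, 3, 4, 5 or 10 or labelled morpholino 1, against 7 without labelled morpholino 2. It was 0 when near-alike arrays were averaged.

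Of 54 cell cycle genes 7 rose and 2 fell, with a median of 0.0758 that turned to -0.0158 on the median-centred scale, where 3 rose and 4 fell. ccnb1.S, the mitotic cyclin B1, read 4.87, 4.36, 3.72, 5.15 and 4.59 against 3.25, 2.85, 2.73, 2.84 and 2.95 and rose by 1.61 ± 0.24 (adjusted p = 0.0015). Its first-side values also lay under log2 4, and it too passed the filter only through second-set arrays. ccnb3.S (-0.55, adjusted p = 0.0113) and cdk2.S (-0.62, adjusted p = 0.0199) fell, the call of cdk2.S being lost without control 10 or labelled morpholino 1 (adjusted p up to 0.0528). The count of rises was 6 without labelled morpholino 2 and 2 to 4 in each of the other 9 fits that left out 1 array. Of 20 stress, p53 and immediate early genes 2 rose (10%, near the share of all named genes) and 1 fell, with a median of 0.0188. Those that rose were junb.L (0.70, adjusted p = 0.00877) and egr1.L (1.12, adjusted p = 0.0118). Of 8 immune genes cd74.L rose (0.83, adjusted p = 0.00861), while 5 lay below 0 and the median was -0.159. hsf1, the heat shock factor gene of the stress list, fell by 0.79 (adjusted p = 0.0112) between signals of 2.97 to 3.77 and 3.86 to 4.17. Only first-set arrays carried it past the filter. Of 23 gastrula organizer and mesendoderm genes 1 rose and 1 fell, with a median of -0.0539. The lower one was cer1.S, and the higher one was gsc.S (1.01, adjusted p = 0.0224, lost without control 4, control 5 or labelled morpholino 3, with 4 genes higher without labelled morpholino 2). Of 17 pluripotency and early zygotic genes 3 rose (17.6%) and 1 fell (5.88%), with a median of 0.0133, and the rises were 1 without control 1, 2, 5 or 10 or labelled morpholino 1. lin28a.S rose (0.70, adjusted p = 0.00685), as did pou5f3.3.L and foxd3.S, and mycl.L fell (-0.997, adjusted p = 0.0238, lost without control 2 or control 5). No gene was called among 5 of the midbrain and hindbrain, 9 of the cement and hatching glands and 6 of blood and endothelium.

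**Figure D3:**
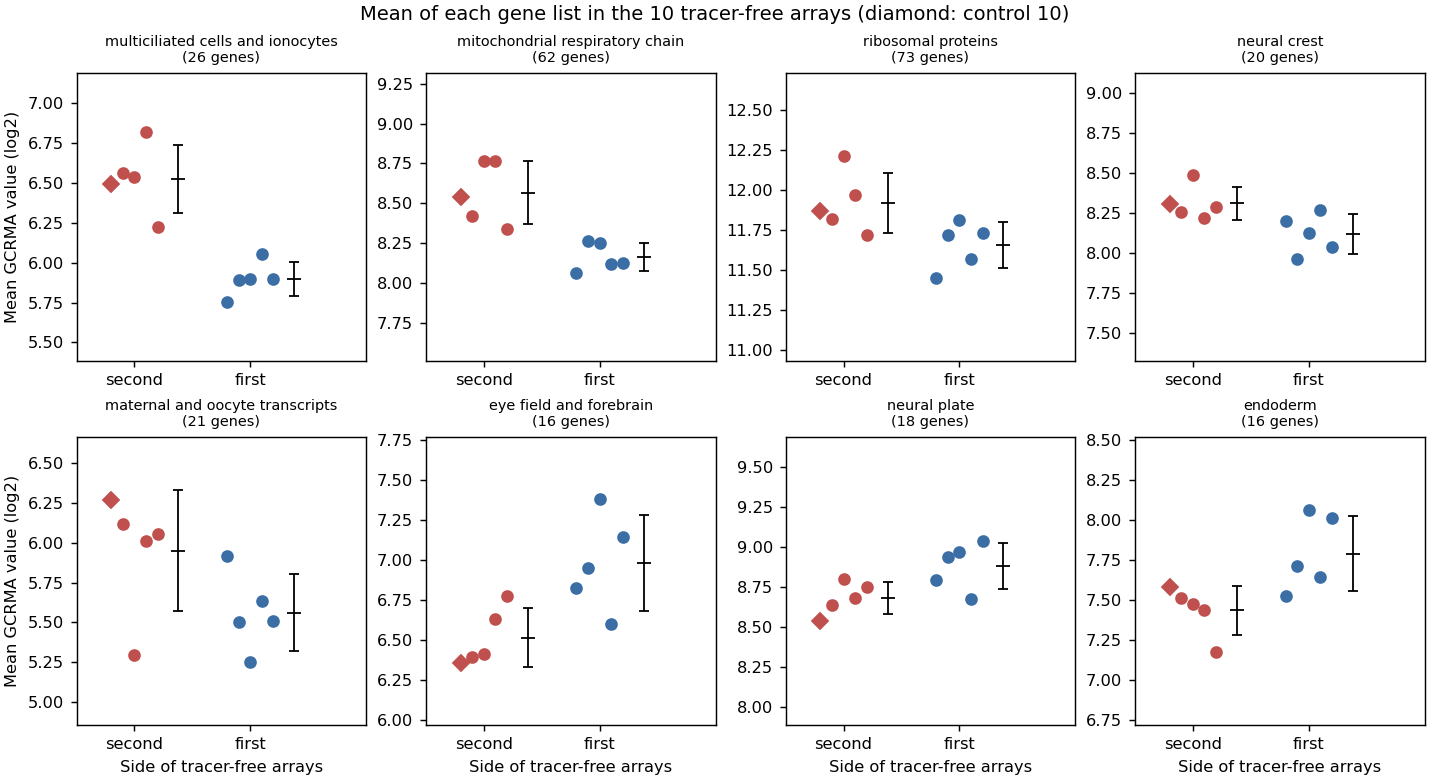
Mean log2 signal of each of 8 gene lists in each tracer-free array, red for the second side (left, diamond for control 10) and blue for the first side (right), with bars for the mean ± SD of 5 arrays. The arrays of the sides are separate for the multiciliated list (means 6.53 and 5.90) and the mitochondrial list (8.57 and 8.17), and overlap for the ribosomal list (11.9 and 11.7).

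Control 10 was the only second-side array whose label and tracer fitted, so the label contrasts inside the tracer-free arrays were examined separately. Labelled morpholino 1 to 4 against control 10 had a median difference of -0.00684 over the kept probe sets. Here the lone array was taken to vary like the others. With 1 array on one side this contrast is weak and cannot show that the labels are alike. Control 10 against control 1 to 5 called 52 probe sets (0.498%), 39 higher (0.374%) and 13 lower (0.125%). Labelled morpholino 1 to 4 against control 1 to 5 called 1004 (9.62%), 667 higher and 337 lower. Of the 24 genes named by size, labelled morpholino 1 to 4 and control 10 differed by at most 0.5 in 16 and by more in 8. The share of all kept probe sets within that limit was not counted, so these counts do not measure how alike the labels are. cdh2.S differed by -1.80 between control 10 and the first side and by 0.08 between labelled morpholino 1 to 4 and control 10, and kmt5a.S by -3.32 and 0.35. Among the 8 were camk2g.S at 1.19 and 1.12, nxf1.S at -2.67 and 1.19, pts.L at -2.70 and -0.85 and thop1.L at 3.54 and -0.79. Of the list genes, fezf2.L had -2.01 and 0.91, rax.S -1.90 and 0.99, bambi.L -0.35 and -0.62, and hsf1 -0.27 and -0.66.

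The same contrast of array sets was available in the 10 tracer-positive arrays, which share no array with the tracer-free ones: control 6 to 9 and labelled morpholino 5 of the second set against mRNA 1 to 5 of the first. There the agents injected, as far as the labels can be trusted, differ as well and cannot be told apart from the set, and the 3' minus 5' signal averaged 0.821 in the second set and 2.68 in the first. That contrast called 3674 probe sets (35.2%), 2177 higher and 1497 lower. Of the 1602 probe sets called between the tracer-free sides, 1108 were called in the same direction (69.2% of these calls and 30.2% of the tracer-positive calls) and 5 in the opposite one. The sign was the same at 1536 of the 1602 (95.9%), against 74.5% of all kept probe sets. Over all of them the differences correlated at r = 0.687 (rho = 0.662), a description across probe sets.

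Of the 24 genes named by size, 19 were called in the same direction in tracer-positive embryos and 23 had the same sign. pts.L fell there by 3.16, kmt5a.S by 2.17 and cdh2.S by 2.32, and thop1.L rose by 2.53. The 5 not called were ccne2.L (0.80, adjusted p = 0.273), xenf.L (-0.43, adjusted p = 0.2), nxf1.S (-0.64, adjusted p = 0.188), tmem30b.L (-0.04, adjusted p = 0.929) and cer1.S, which had the opposite sign (0.34, adjusted p = 0.543). The lists of multiciliated cells (19 of 26 higher, median 0.869), mitochondrial genes (35 of 62, median 0.629) and ribosomal proteins (48 of 73, median 0.512) had positive medians there too. So had the maternal list (7 higher, 1 lower, median 0.478), the epidermis list (8 higher, 0 lower, median 0.331) and the proteasome list (23 higher, median 0.43). Between the tracer-free sides, however, 9.59% of ribosomal, 8.33% of epidermis and 2.33% of proteasome genes were called higher. These shares were near or under the 9.63% of all named genes. Some lists changed the sign of their median. The eye field list had 6 genes higher and 5 lower (median 0.103). Its genes called between the tracer-free sides fell again, six3.L by 2.49, six3.S by 1.17 and fezf2.L by 1.33. The endoderm list had 3 higher and 1 lower (median 0.0919). The BMP list had 12 higher and 2 lower (median 0.346), and the lower ones were id4.S and smad6.L. The neural plate list kept a negative median (-0.171), with 2 higher and 5 lower. In the neural crest list 4 were higher and 3 lower (median 0.0608). Of its genes called between the tracer-free sides, snai2.L (0.68), snai2.S (0.60) and ets1.S (1.28) rose again. The other called genes of that list did not, sox9.S at -0.22 (adjusted p = 0.387) and foxd3.S at -0.12 (adjusted p = 0.625). Among all named genes 34.1% were called in that contrast, 22.2% higher and 11.9% lower.

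**Figure D4:**
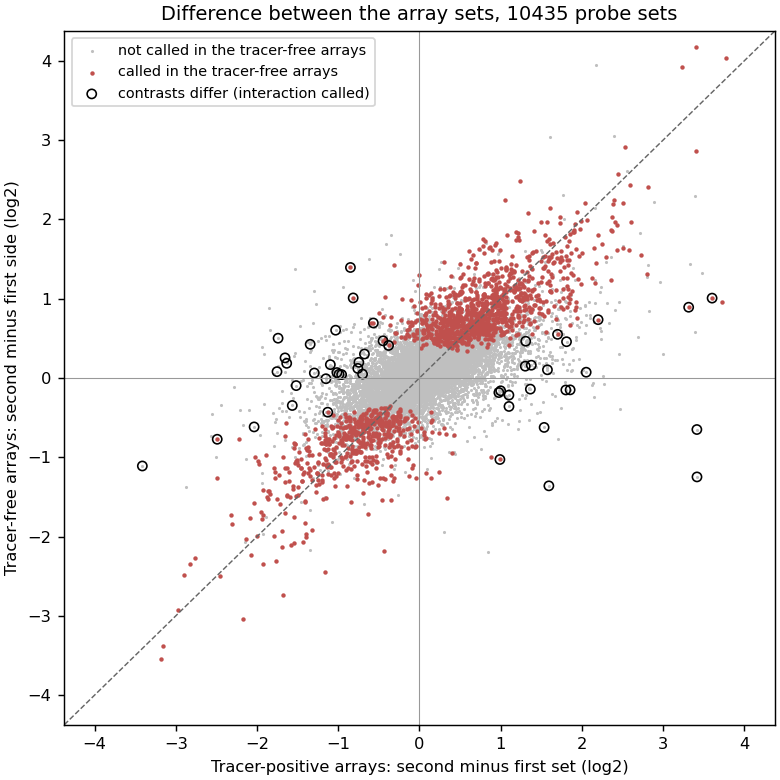
Difference between array sets (second minus first, log2) for each kept probe set in tracer-free arrays against the same difference in tracer-positive arrays, with the probe sets at which the contrasts differ marked. The points rise together with much scatter (r = 0.687, the same sign at 74.5% of probe sets). six3.L, pou5f3.3.L, h2ax.S and rax.S are among the 49 called by the interaction test. Points not called are not thereby shown to be alike in both contrasts.

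A test of the difference between the contrasts (an interaction over all 20 arrays) called 49 probe sets (0.47%), with the tracer-free contrast above the tracer-positive one at 27 (0.259%) and below it at 22 (0.211%). Of these, 32 had opposite signs in tracer-free and tracer-positive embryos. Of the 49, 12 were called between the tracer-free sides and 48 in tracer-positive embryos. The unadjusted p of this test was under 0.05 at 1529 probe sets, so those not called are not shown to be alike. six3.L fell by 0.77 in tracer-free and by 2.49 in tracer-positive embryos, where it read 4.61, 5.59, 4.11, 4.19 and 4.44 in the second set and 6.87, 7.27, 6.91, 6.90 and 7.44 in the first (difference of the contrasts 1.72 ± 0.31, adjusted p = 0.021). rax.S had -1.11 and -3.41 (2.30 ± 0.51, adjusted p = 0.0498), with 3.00 to 3.23 against 5.53 to 7.65 in tracer-positive arrays. The labels give the first set Xrx1 mRNA, and injected and embryonic RNA of that gene cannot be told apart there. pou5f3.3.L rose by 1.01 and by 3.60 (-2.60 ± 0.55, adjusted p = 0.0395). This gene entered the test only through second-set arrays (above).

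Several genes moved in opposite directions. h2ax.S, a histone H2A variant gene, fell by 1.03 in tracer-free and rose by 0.99 in tracer-positive embryos (-2.02 ± 0.35, adjusted p = 0.021). mef2d.L, a muscle transcription factor gene, rose by 0.69 and fell by 0.57 (1.26 ± 0.23, adjusted p = 0.021), and unc45b.S, a myosin chaperone gene, rose by 1.01 and fell by 0.82 (1.83 ± 0.36, adjusted p = 0.0278). The muscle list had a median of 0.323 in tracer-free and -0.624 in tracer-positive embryos. otx2.S, a head homeobox gene, differed by -0.62 (adjusted p = 0.136) in tracer-free embryos and rose by 1.54 in tracer-positive ones (-2.16 ± 0.45, adjusted p = 0.0387). The copy cdh2.L, unlike cdh2.S, differed by 0.17 (adjusted p = 0.575) in tracer-free embryos and fell by 1.10 in tracer-positive ones.

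Where a gene had several probe sets, these did not always move together. Of 850 such genes 39 had at least 2 probe sets called between the tracer-free sides, and in 6 of them the calls pointed in opposite directions: emid1.L, glt8d1.L, itgb1.L, sbk1l.L, spryd7.S and tmem184c.L. Of all kept probe sets 15.4% were called, and the count that this share alone would give was not worked out. In tmem184c.L, which encodes a transmembrane protein, one probe set read 6.25, 6.32, 6.39, 6.20 and 6.65 on the second side and 4.63, 4.68, 4.38, 4.87 and 4.81 on the first. The other read 3.89, 4.00, 3.84, 4.03 and 4.25 against 6.50, 6.49, 5.96, 6.22 and 5.99. One rose by 1.69 ± 0.14 and the other fell by 2.23 ± 0.15 (adjusted p = 2.01e-05), so no direction can be given for the gene. In glt8d1.L the probe sets differed by 1.99 and -1.09, and in emid1.L by 1.45 and -0.72. In 4 of the 6 genes the opposite calls recurred in tracer-positive arrays. A probe set with no gene symbol here stood at 3.36 to 3.69 on the second side and 6.09 to 7.14 on the first, and at 3.65 to 4.01 and 6.21 to 7.34 in tracer-positive arrays of the second and first set. It was the only kept probe set under log2 4 in all arrays of one side and above log2 6 in all of the other.

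**Figure D5:**
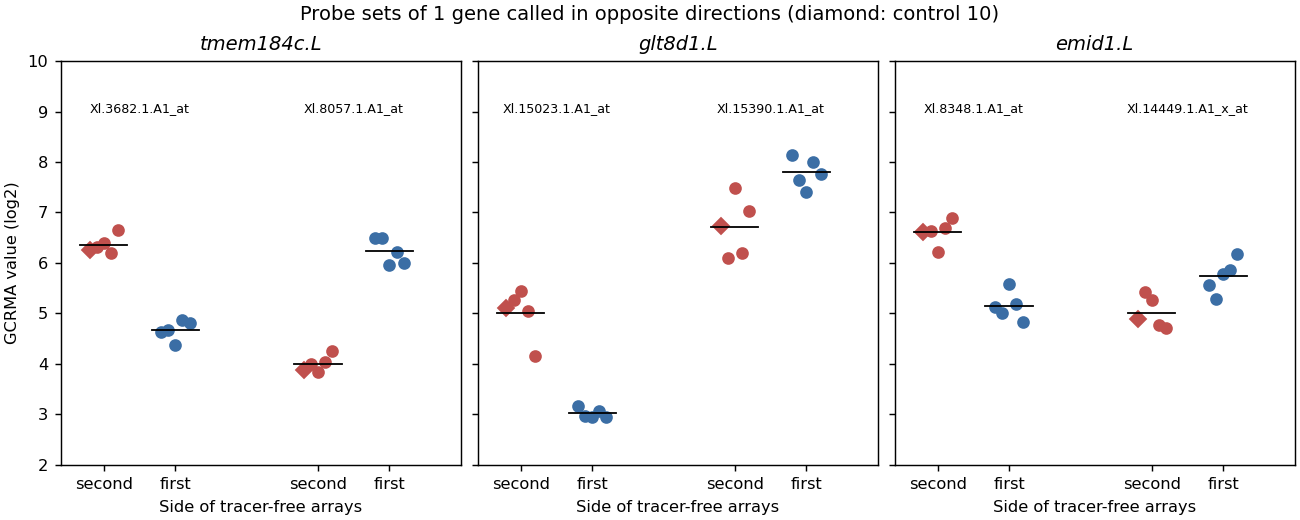
Log2 signal in each tracer-free array at the oppositely called probe sets of the same gene, red for the second side (left, diamond for control 10) and blue for the first side (right). In tmem184c.L one probe set is higher on the second side (mean 6.36 against 4.67) and the other lower (4.00 against 6.23).

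Homeologous copies were compared in 745 gene pairs with both copies measured. The differences of the .L and .S copies correlated weakly (r = 0.251 across pairs, a description). Both copies were called in 24 pairs, 19 with both higher, 4 with both lower and 1 in opposite directions, and 1 copy alone was called in 171 pairs. Among all named genes 13.8% were called. How many pairs that share alone would give was not worked out, so these counts do not show that copies move together. snai2 and six3 were among the pairs called in both copies, as was atp5po, a subunit of ATP synthase (0.84 and 1.26), hspa9, the mitochondrial Hsp70 chaperone (0.76 and 0.74), and creld2, a chaperone of the endoplasmic reticulum (-0.56 and -0.89). The opposite pair was glmp, a lysosomal membrane protein gene: glmp.L rose by 0.79 (adjusted p = 0.0394) and glmp.S fell by 0.96 (adjusted p = 0.00302), and both did so in tracer-positive embryos (0.78 and -1.09).

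Some genes varied more between arrays of one side than between the sides. tspan8.L, a tetraspanin gene, read 8.43 in control 10 and 10.3, 2.10, 9.05 and 2.11 in labelled morpholino 1 to 4, and 2.85, 9.54, 10.8, 2.62 and 10.1 in control 1 to 5. Both sides thus held arrays at the bottom and near the top of the range. acod1lb.L read 9.77, 11.03, 4.89, 12.3 and 6.35 on the second side and 3.70, 3.23, 9.64, 3.82 and 4.16 on the first. On the first side, eps8l3.S read 9.14, 3.50, 9.59, 10.1 and 3.45, low only in control 2 and 5, and tf.L, the transferrin gene, read 3.00, 7.79, 8.43, 3.19 and 7.76, low only in control 1 and 4. The second side read 8.20 to 10.4 and 4.42 to 6.06 for these. None of these genes was called between the sides (adjusted p = 0.847 for tspan8.L, 0.108 for acod1lb.L, 0.277 for eps8l3.S and 0.653 for tf.L). In tspan8.L, eps8l3.S and tf.L the splits within the first side fell between the pairs of near-alike arrays, whereas acod1lb.L was high only in control 3.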

How the data were processed

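The authors deposited log2 values made with GCRMA, 1 per probe set and array, per the submitters' processing notes; the sources used here give neither its version nor which arrays went into a run. GCRMA sets background and scale across arrays, so a joint or separate run could move all differences between array sets. Control probe sets (120) entered no test, and gene names came from the platform annotation (9304 of 15491 probe sets had 1 symbol). A gene was represented by its probe set with the highest mean over the 20 arrays. The members and lists were chosen with earlier results of these data known. Contrasts were fitted with lmFit and eBayes in limma 3.58.1 (R 4.3.3) with Benjamini-Hochberg adjustment over all kept probe sets. Genes were named as the 12 largest each way among non-overlapping calls above log2 6, up to 4 called members of each of 22 lists, and 5 per side for spread; the other called members, interaction genes, rax, homeologs and opposed probe sets were named after their values were seen. Alternatives changed the filter, scaling, weights, block, covariate or arrays; averaging near-alike arrays was added after seeing the data. In simulated data with the spread of this comparison, 16%, 48% and 100% of probe sets raised by 0.5, 1 and 2 log2 units and 90% of those lowered by 2 were recovered, with 8 false calls. The simulated arrays were drawn independently, whereas the near-alike arrays correlated at 0.987 to 0.992. These rates therefore do not give the error of the real comparison.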

Additional observations from a re-analysis of the deposited data

Results flagged for a closer look

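Of 156 groups of 5 arrays examined (the named genes on each side), 9 held a single array set apart from the other 4 by more than 0.71 of the group's range, where chance gives about 1 in 20. These were thop1.L in labelled morpholino 2 (4.51), pnrc2.L in labelled morpholino 4 (8.06), cer1.S in labelled morpholino 2 (4.84), snai2.S in labelled morpholino 2 (5.06) and rpl39.L in labelled morpholino 3 (12.8) on the second side. On the first side they were cdh2.S in control 1 (6.61), dnai1.L in control 5 (5.24), ca2.L in control 4 (4.95) and gata6.S in control 5 (3.35). Labelled morpholino 2 accounted for 3 of the 9.

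The contrast of array sets differed between tracer-free and tracer-positive embryos, by the interaction in limma, for pou5f3.3.L (-2.60, adjusted p = 0.0395), six3.L (1.72, adjusted p = 0.021) and mef2d.L (1.26, adjusted p = 0.021), each a named list member. In the arrays labelled control 6 to 9, which the labels call uninjected, the second tracer probe set stood at 14.29 or above, against at most 3.56 in the tracer-free arrays.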

How the results depend on the processing

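The 1602 calls between the tracer-free sides became 3352 with no filter, 780 with a filter at log2 6, 2784 with array weights, 362 centred on bacterial probe sets, 365 with near-alike arrays averaged and 52 with only arrays labelled control. They stayed within 1.5 times of 1602 when median-centred, quantile normalized, with trend and robust, over all 20 arrays and with RNA quality as a covariate (1495 to 2081). Leaving out 1 array gave 1004 to 1839 calls. The shared replicate number as a block (4 pairs) gave 539, against 702 for the same 8 arrays unblocked; deviations of same-numbered arrays correlated at 0.278, 0.0898, 0.121 and 0.176. Number 2 stayed under 0.1, and no label ties the numbers, so they were not taken to pair the arrays, although 3 of 4 matched best with their own, a hint from the data. With the block 39 values of named genes lost their call. The 3674 tracer-positive calls stayed within 1.5 times, with 2925 to 3600 when 1 array was left out. The 49 calls of the difference of contrasts became 523 with array weights and were 35 to 43 under the other alternatives, with no leave-one-out run. The median difference of labelled morpholino 1 to 4 against control 10 was -0.0107 to 0.00259 over its fits, which all rest on that lone array. For named genes, 1361 alternative values kept direction and call, 288 lost the call, 5 gained it and 0 reversed; the causes were not tested. Signals below log2 4 limit the size of differences such as those of pts.L. Some signals at the low end also separated the sides. gata1.L read 2.05 to 2.15 on the second side and 2.27 to 2.50 on the first, and gata1.S read 2.57 to 2.62 and 2.65 to 2.80. The part of such a shift in calls near the low end was not tested.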
